A study of Homo sapiens with 2 samples.

Results

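The genes examined here were 8 components of the MHC class I antigen presentation route and the ubiquitin-like modifier UBD. The 8 were the heavy chains HLA-B, HLA-C, HLA-E and HLA-F, the light chain B2M, both subunits of the peptide transporter, TAP1 and TAP2, and the peptide loading factor TAPBP. All probes carrying one of these 9 gene names were taken, with no selection on signal, which gave 17 of the 34127 gene probes on the array. The set was drawn up when values of these same arrays were already known, so every value below is a description and no test was made on it.

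The study asked which transcripts change when SET7/9, a lysine methyltransferase encoded by SETD7, is depleted in gastric cancer cells. MKN74 and MKN45, established human gastric cancer cell lines, were electroporated with SET7/9 siRNA or with a negative control siRNA at 50 nM, and total RNA was taken after 48 hours. Each line was measured on 1 two-colour Agilent array, with the control siRNA RNA in the Cy3 channel and the SET7/9 siRNA RNA in the Cy5 channel. Both groups therefore shared the electroporation and an siRNA, the dyes were not swapped, and a dye effect cannot be told apart from a knockdown effect. The study prepared more than 1 SET7/9 siRNA, and which of them was hybridised is not given in the sources used here. There were no replicate arrays. The error printed with a ratio is the scanner software's own estimate for the spot, on the log2 scale, and is not a spread between cultures.

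MHC class I molecules display short peptides from inside the cell to CD8 T cells and natural killer cells. Peptides cut by the proteasome are carried into the endoplasmic reticulum by TAP, trimmed there, and loaded with the help of tapasin (TAPBP) onto a heavy chain paired with beta-2 microglobulin (B2M). Most of these genes lie in the MHC region of chromosome 6 and are inducible by interferon gamma. UBD, also called FAT10, is encoded in the same region, is inducible by interferon gamma and tumour necrosis factor, and marks proteins for the proteasome.

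The array reads each transcript with probes of 60 bases, and the sequences set how far the class I genes can be told apart. Heavy chain genes are close copies of each other. At the end of the HLA-B transcript, 3 probes overlapped, and 1 of them carried the name HLA-C although the array annotation placed it at the HLA-B locus. Their shared stretch is printed as the probe reads it, from GRCh37 chr6:31321674-31321703 on the minus strand, with the base that differed in capitals:
HLA-B probe A_33_P3424800: taagtcaattcctggaaGttgagagagcaa
HLA-B probe A_33_P3379947: taagtcaattcctggaaTttgagagagcaa
HLA-C probe A_33_P3424803: taagtcaattcctggaaGttgagagagcaa
Counted from the 5′ end of the printed stretch and against the sequence of A_33_P3424800, the probe A_33_P3379947 carried G18T and A_33_P3424803 carried no difference. The 3 probes covered 41 bases in common. The RefSeq transcripts that the array design listed for both HLA-B probes included HLA-C transcripts. The values of these 3 probes are therefore given by probe and cannot be assigned to HLA-B or HLA-C alone. The other HLA-C probe, A_33_P3330109, lay at the HLA-C locus, chr6:31236617-31236676, and its listed transcripts were all of HLA-C. The HLA-F probe A_33_P3379939, at chr6:29693280-29693338, was listed for HLA-F and also for a transcript of the pseudogene HLA-H.

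The remaining printed probes stand for the light chain, the second HLA-F site, the transporter subunit with the highest ratio in MKN74 and UBD. The first 2 are whole probes and the other 2 are their leading 30 bases, all written 5′ to 3′ in GRCh37 coordinates:
B2M, chr15:45007773-45007832, plus strand: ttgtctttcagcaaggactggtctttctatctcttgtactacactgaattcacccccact
HLA-F probe A_33_P3379967, chr6:29692114-29692173, plus strand: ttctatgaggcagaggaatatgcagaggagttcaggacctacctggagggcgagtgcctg
TAP1, chr6:32813240-32813269, minus strand: tccaggatgagttacttgaaatttgccttg
UBD, chr6:29523507-29523536, minus strand: atttgggtgggatgggtaggatgaagtata
B2M, TAP1, HLA-E and UBD each rested on 1 probe. HLA-C, HLA-F and TAP2 had 2 probes each, HLA-B had 3 and TAPBP had 4.

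The knockdown was checked at the target gene. At the brighter SETD7 probe the MKN74 log2 ratio was -2.03 and the MKN45 one -1.95, with an error of 0.28 on either array. The other SETD7 probe gave 0.24 (error 0.22) in MKN74 and -0.23 (error 0.21) in MKN45, so it was not lower in the knockdown channel of MKN74. Signal was called well above background in 54.7% of Cy3 and 60.4% of Cy5 probe measurements in MKN74 and in 59.7% and 66.6% in MKN45, and no gene spot was saturated. Probes spotted repeatedly on an array differed by a pooled SD of 0.0781 in log2 ratio in MKN74 and 0.0839 in MKN45. Of the gastric epithelial markers 7 of 8 were well above background in the control channel of either line, all but KRT20, and the scaled intensity summed over the genes above background was 389247 in MKN74 and 352174 in MKN45. Of the leukocyte markers 4 of 11 in MKN74 and 5 of 11 in MKN45 were above background, with sums of 1025 and 1361. Of fibroblast and endothelial markers 2 of 10 and 4 of 10 were, with sums of 224 and 89.7. CD3E, MS4A1, ITGAM, COL1A2, DCN and KDR were not above background in the control channel of either line. The leukocyte markers CD3D, CD14, CD79A and FCER1G were above it in both lines. So were COL1A1 and CDH5 of the fibroblast and endothelial markers.

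The class I genes read near their control level after knockdown, and UBD in MKN45 stood apart from them. A gene was counted as past 1.5-fold when its brightest probe with signal in at least 1 channel reached that ratio in either direction. In MKN74 none of the 8 measured genes did so, where 5.56% of all genes did. In MKN45 1 of 9 did, UBD, where 6.58% of all genes did. With both channels required to be well above background the counts for the 9 genes were the same, and the shares over all genes were 2.14% and 2.36%. The median log2 ratio of the genes was 0.04 in MKN74 (n = 8 genes) and 0.11 in MKN45 (n = 9 genes), beside 0.01 over all genes in each line.

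**Figure D1:**
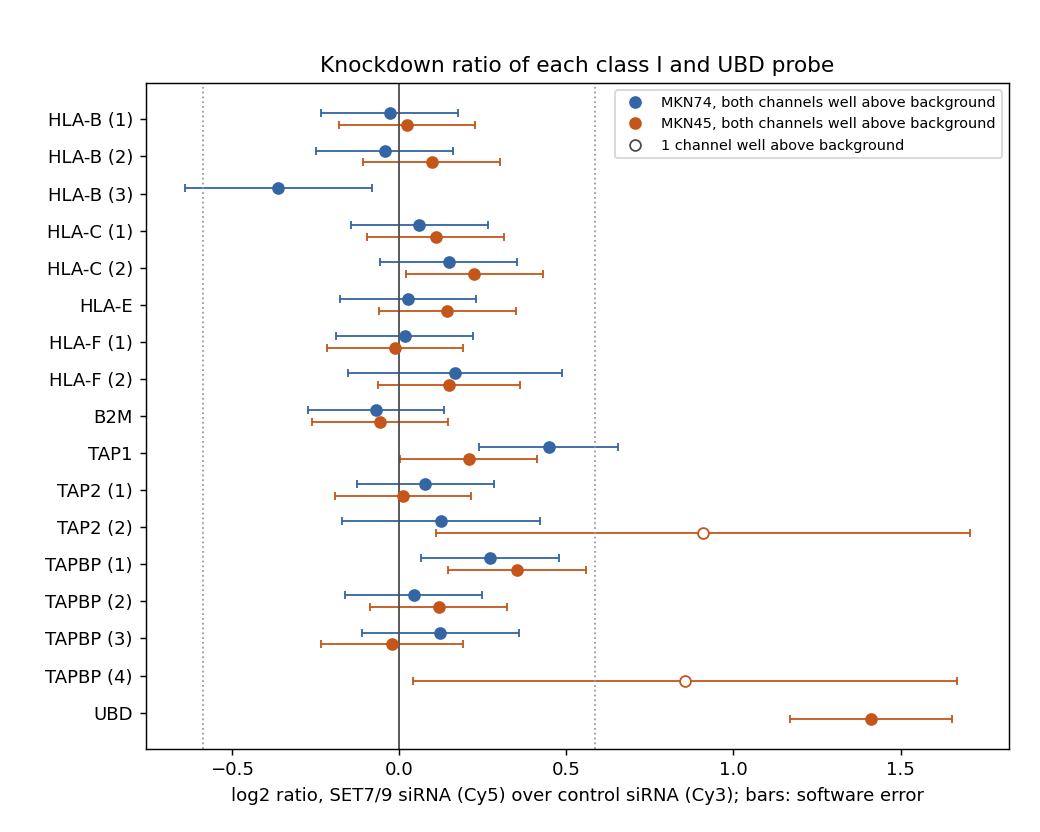
Log2 ratio of SET7/9 siRNA over control siRNA (x axis) for each probe (y axis, brightest first within a gene), with the software error as bars and dotted lines at 1.5-fold. Filled points had both channels well above background and open points 1 channel, and probes with neither are not drawn. UBD in MKN45 at 1.41 is the only filled point beyond a dotted line.

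Of the 17 probes, 15 had both channels well above background in MKN74 and 14 in MKN45. In MKN74 these 15 ratios ran from -0.36 to 0.45, and 3 of them exceeded their own error. In MKN45 the 14 ratios ran from -0.06 to 1.41 with UBD and reached only 0.35 without it, and 4 exceeded their own error. In each line 11 of the probes with both channels measured had ratios above 0. Over all genes with both channels measured, 7024 of 14487 in MKN74 and 7909 of 15730 in MKN45 did. The share of all probes beyond their own error is not given here. Probes of a gene are not replicates, and 3 of the probes counted read nearly the same stretch.

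Among the heavy chains, which present peptide to T cells (HLA-B, HLA-C), to natural killer receptors (HLA-E) or in forms bound by other innate receptors (HLA-F), no probe with both channels measured reached 1.5-fold. The overlapping HLA-B probes gave -0.03 and -0.04 in MKN74 against 0.02 and 0.10 in MKN45 (error 0.20 for all). The overlapping probe named HLA-C gave 0.06 and 0.11. These 3 probes, which read nearly the same stretch, differed by less than their error in either line.

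The HLA-C probe at the HLA-C locus gave 0.15 (error 0.20) in MKN74 and 0.23 (error 0.21) in MKN45, so it exceeded its error in MKN45 only, and narrowly. HLA-E gave 0.03 and 0.14, each with an error of 0.20. The third HLA-B probe, A_33_P3399208, which the array annotation left unmapped, gave -0.36 (error 0.28) in MKN74 at a dim control signal of 49.9 scaled intensity units. In MKN45 neither channel of that probe was well above background. It was thus the lowest ratio of the set in MKN74, and lower than those of the brighter HLA-B probes. With normexp background correction and loess it was -0.096 in MKN74, beside -0.104 and -0.122 at the brighter HLA-B probes, so the gap depended on the processing.

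The HLA-F probes lie at different places in the transcript, and their ratios differed little. A_33_P3379939 gave 0.02 in MKN74 and -0.01 in MKN45 (error 0.20 for both). A_33_P3379967 gave 0.17 (error 0.32) and 0.15 (error 0.21). None of these 4 ratios exceeded its error.

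B2M, the light chain shared by all class I molecules, was spotted 10 times on each array, and 9 spots were used on each. In MKN74 its spots ran from -0.14 to 0.003, with a mean of -0.07 ± 0.05 (SD over 9 spots). In MKN45 they ran from -0.12 to -0.02, with a mean of -0.06 ± 0.03 (SD over 9 spots). Of the 9 spots, 8 in MKN74 and all 9 in MKN45 were below 0. The spots of B2M lay close together, which describes the array and not the spread between cultures, and the mean was well inside the software error of 0.20.

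TAP1 and TAP2 form the transporter that carries peptides into the endoplasmic reticulum. TAP1 had the highest ratio of the set in MKN74, 0.45 (error 0.21), a 1.36-fold higher signal in the knockdown channel, and 0.21 (error 0.20) in MKN45. Both ratios were positive and both exceeded their error, in MKN45 by very little. With normexp background correction and loess the MKN74 ratio was 0.32. The MKN45 ratio was 0.09 with that processing and 0.19 with median centring, both below its error of 0.20. Among genes with both channels measured, TAP1 ranked 286 of 14487 from the top in MKN74 and 2027 of 15730 in MKN45.

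The brighter TAP2 probe, A_33_P3214650, gave 0.08 (error 0.20) in MKN74 and 0.01 (error 0.20) in MKN45. The other, A_23_P368067, is listed for a different RefSeq transcript of TAP2. It gave 0.13 (error 0.30) in MKN74 and 0.91 (error 0.80) in MKN45, where its control channel was not well above background and its knockdown signal was only 7.61 scaled intensity units. No lower bound above 1 could be set for that ratio. Only the brighter TAP2 probe was measured in both channels in MKN45, so whether the probes differed there cannot be told. With normexp background correction and loess the brighter probe gave -0.034 in MKN45 and the dim one -0.039.

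TAPBP, or tapasin, holds the heavy chain at the transporter until peptide binds. Its brightest probe, A_23_P365719, gave 0.27 (error 0.21) in MKN74 and 0.35 (error 0.21) in MKN45, a 1.21-fold and 1.28-fold higher knockdown signal. In the main processing it was the only probe of the set other than that of TAP1 whose ratio exceeded its error in both lines. The other TAPBP probes with both channels measured gave lower ratios. A_33_P3325914 gave 0.04 and 0.12, each with an error of 0.21, and A_23_P259580 gave 0.12 (error 0.23) and -0.02 (error 0.21). The array design listed RefSeq transcripts for the brightest probe that it did not list for these, and whether that bears on the ratios was not tested.
The last TAPBP probe, A_23_P360291, had no channel above background in MKN74. In MKN45 it gave 0.86 (error 0.81) with the control channel not well above background and with no lower bound above 1.

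UBD was the exception. In MKN45 its probe read 296 processed intensity units in the control channel, and both channels were well above background. The log2 ratio was 1.41 (error 0.24), a 2.66-fold higher signal after SET7/9 siRNA. This was the highest ratio among the 15730 genes with both channels measured in MKN45, where 0.826% of genes were at least 1.5-fold higher. In MKN74 neither UBD channel was well above background, so no ratio could be given there, and the difference of the UBD ratio between the lines was not tested. The value rests on 1 spot of 1 probe.

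The shape of the UBD values, dark in both channels in MKN74 and measured in both in MKN45, was shared by 1927 probes. Of these, 54 were at least 1.5-fold higher in the knockdown channel of MKN45 and 125 at least 1.5-fold lower. Counted by gene and not by probe, 130 of all 15730 genes with both channels measured in MKN45 were that much higher and 242 that much lower. UBD had the highest ratio of the 54. Next to it came SERPINB9, an inhibitor of granzyme B, with 1.31 (error 0.25), C6orf222 with 1.11 (error 0.25), SERPINA3, an acute phase protease inhibitor, with 1.07 (error 0.26), and the matrix metalloproteinase MMP7 with 1.02 (error 0.22). A second SERPINA3 probe among the 54 gave 0.61 (error 0.27). Scaled control intensities in MKN45 were 35.1 for SERPINB9, 31.6 for C6orf222, 31.9 for the higher SERPINA3 probe and 389 for MMP7, beside 322 for UBD. These neighbours were picked by the pattern after values were seen.

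For the class I genes a likeness could be computed over 3 values, the ratio in each line and the control level difference between the lines. The 8 members measured in all 4 channels had a median of 0.04 and 0.07 in log2 ratio and 0.60 in control level difference. Of 13592 genes, the 5 nearest to this point were ENST00000413112 (distance 0.017), MIER2 (0.023), CENPQ (0.026), HIGD2A (0.028) and SRRT (0.029). No member lay as near, the closest being HLA-C (at the probe placed at the HLA-B locus) at 0.10 and TAP2 at 0.11, and HLA-F lay 3.43 away. With 13592 genes and 8 members, genes nearer than any member were likely beforehand, so nothing is drawn from these distances.

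**Figure D2:**
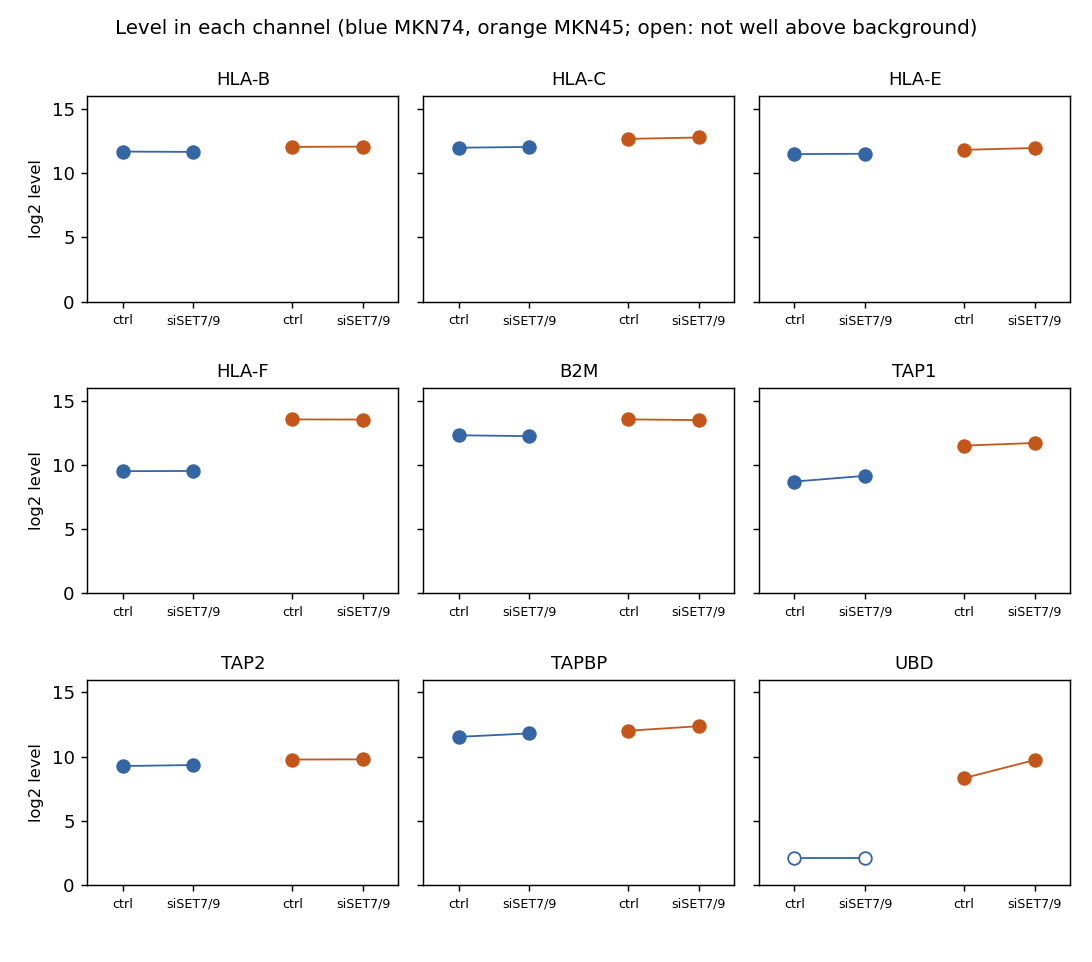
Log2 level of the brightest probe of each gene (y axis, after scaling between arrays) in the control and SET7/9 siRNA channels of MKN74 and MKN45, with open points for channels not well above background. Lines join the channels of an array. The steps within an array are small except for UBD in MKN45, while HLA-F, TAP1, B2M and UBD differ between the arrays.

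The levels of HLA-F, TAP1, B2M and UBD differed more between the cell lines than between the siRNAs. To compare arrays, both were brought to the same distribution of mean brightness, and the control channel was read as a log2 level in each line. At the brightest probe with a control signal in at least 1 line, all 9 genes were higher in MKN45 control cells than in MKN74 control cells. Over all genes, 8232 of 16700 were higher in MKN45. The 9 of 9 depends on that probe rule, since the dim TAP2 probe and the unmapped HLA-B probe were higher in MKN74. Past 1.5-fold were 5 of the 9 (HLA-C, HLA-F, B2M, TAP1 and UBD), where 30.8% of all genes were that much higher and 31.1% that much lower. The HLA-C value here is that of the probe placed at the HLA-B locus. The median difference was 0.69 (n = 9 genes), beside -0.02 over all genes. It is the value of that HLA-C probe, and it was 0.40 with the mean of each gene's probes. The 8 genes with a control signal in both lines had a median of 0.60, beside -0.10 over all such genes. With 1 culture of each line, a difference between lines cannot be told apart from a difference between cultures or arrays.

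HLA-F at probe A_33_P3379939 showed the widest measured difference of the set. Its scaled control intensity was 731 in MKN74 and 11960.1 in MKN45, a log2 difference of 4.03 (error 0.20) or 16.4-fold. The other HLA-F probe went from 28.3 to 90.9, a difference of 1.68 (error 0.31) or 3.21-fold, but of only 0.82 with normexp background correction and loess. Both HLA-F probes were higher in MKN45, by amounts that differed from each other beyond their errors, and the part of HLA-H transcripts or of allele sequence in that was not tested.

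TAP1 was next, at 418 in MKN74 and 2904 in MKN45, a difference of 2.80 (error 0.20) or 6.95-fold. B2M was 5083 and 11983, a difference of 1.24 (error 0.20) or 2.36-fold. UBD was at 322 in MKN45 and not well above background in MKN74, which made it at least 14.6-fold higher in MKN45 control cells. With normexp background correction and loess, in which an offset is added to low and high signals alike, the UBD difference was 2.78 on the log2 scale. That is below the lower bound just given, so the bound holds for the main processing only.

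The other genes differed less. TAP2 at its brighter probe differed by 0.51 (error 0.20), TAPBP at its brightest by 0.48 (error 0.20) and HLA-E by 0.33 (error 0.20). The remaining TAPBP probes with signal differed by 0.62 (error 0.24) and 0.11 (error 0.21). The dim TAP2 probe went the other way and was at least 2.64-fold higher in MKN74.

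For HLA-B and HLA-C the probes did not give the same difference. The overlapping HLA-B probes differed between the lines by 0.36 and 0.75, and the overlapping probe named HLA-C by 0.69, each with an error of 0.20. The HLA-C probe at the HLA-C locus differed by only 0.04 (error 0.20). The unmapped HLA-B probe was at least 4.13-fold higher in MKN74. Heavy chain genes vary in sequence between people and so between lines, and how far that sequence sets the probe signal was not tested.

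**Figure D3:**
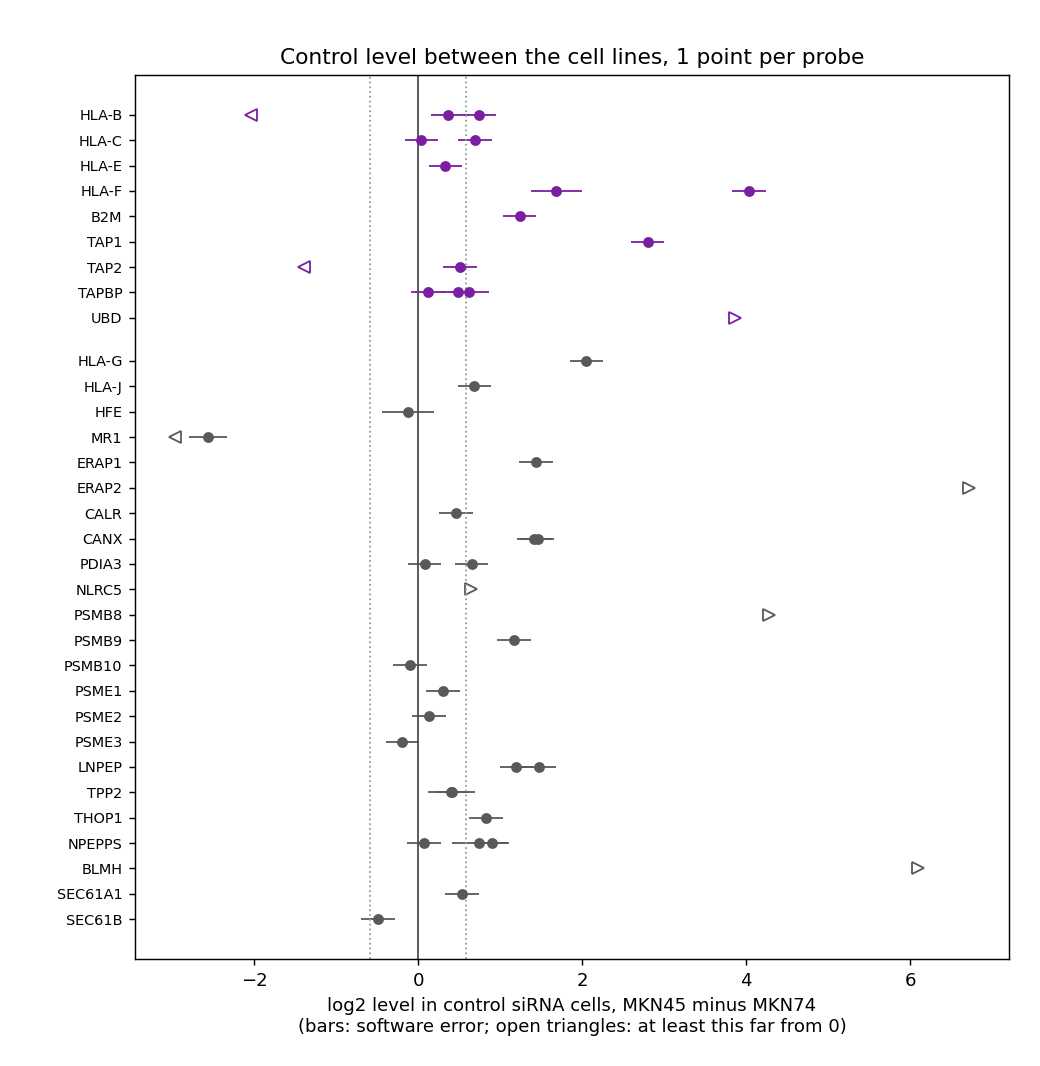
Difference in log2 level between control siRNA cells of MKN45 and MKN74 (x axis) for the probes of the 9 genes (purple, above) and of other class I pathway genes (grey, below), with the software error as bars and dotted lines at 1.5-fold. Open triangles are lower bounds where 1 line had no signal above background. HLA-F, TAP1, B2M and UBD lie right of the dotted line at every probe.

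The 4 levels of each brightest probe were also put in order. For HLA-B, HLA-C (at the probe placed at the HLA-B locus), HLA-E, HLA-F, B2M, TAP1, TAP2 and TAPBP both MKN45 levels were above both MKN74 levels. In control cells alone 8232 of 16700 genes were higher in MKN45, and the share of all genes with the full order is not given here. At the HLA-C probe of the HLA-C locus the lines interleaved, with log2 levels of 12.18 in MKN45 knockdown, 12.07 in MKN74 knockdown, 11.96 in MKN45 control and 11.92 in MKN74 control cells. The gap between the lines ran from 0.21 for TAPBP and 0.30 for HLA-E to 1.18 for B2M and 2.35 for TAP1, and was widest for HLA-F. Within a line the control and knockdown levels of these 8 genes were neighbours in that order and differed by at most 0.45. For TAPBP the gap between the lines was smaller than the step of 0.35 between the siRNAs in MKN45.

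Promoters of 8 of the 9 genes were listed in RefSeq, and HLA-E had no entry. The 250 bases before the start site were searched on both strands for 3 motifs, chosen from textbook knowledge of class I promoters. The interferon regulatory factor (IRF) type was GAAA, any 2 bases and GAAA. The interferon-stimulated element type was AA, any 2 bases and GAAACT, and can overlap the IRF type. The kappa-B type was GGG, any 2 bases, TT, any base and CC. Among all 35116 listed promoters 3.02%, 1.33% and 5.07% held them, in that order. The windows of 4 genes are printed because their genes had the widest differences between the lines, with matches to any of the 3 motifs in capitals (GRCh38.p14):
UBD, chr6:29559733-29559982, minus strand: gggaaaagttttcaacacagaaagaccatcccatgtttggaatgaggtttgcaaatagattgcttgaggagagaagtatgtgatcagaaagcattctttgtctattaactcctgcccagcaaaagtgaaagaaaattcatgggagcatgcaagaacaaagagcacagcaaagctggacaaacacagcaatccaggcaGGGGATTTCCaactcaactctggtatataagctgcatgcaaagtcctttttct
HLA-F, chr6:29723184-29723433, plus strand: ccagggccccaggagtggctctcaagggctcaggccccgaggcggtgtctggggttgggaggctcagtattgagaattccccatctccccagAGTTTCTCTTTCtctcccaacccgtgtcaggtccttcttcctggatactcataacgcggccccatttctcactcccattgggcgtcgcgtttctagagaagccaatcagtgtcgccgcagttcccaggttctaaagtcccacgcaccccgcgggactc
TAP1, chr6:32853705-32853954, minus strand: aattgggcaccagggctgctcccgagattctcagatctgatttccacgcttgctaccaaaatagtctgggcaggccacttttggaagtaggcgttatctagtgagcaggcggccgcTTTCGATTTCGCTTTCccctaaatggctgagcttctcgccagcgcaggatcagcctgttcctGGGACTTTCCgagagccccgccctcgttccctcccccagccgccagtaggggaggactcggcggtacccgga
B2M, chr15:44711267-44711516, plus strand: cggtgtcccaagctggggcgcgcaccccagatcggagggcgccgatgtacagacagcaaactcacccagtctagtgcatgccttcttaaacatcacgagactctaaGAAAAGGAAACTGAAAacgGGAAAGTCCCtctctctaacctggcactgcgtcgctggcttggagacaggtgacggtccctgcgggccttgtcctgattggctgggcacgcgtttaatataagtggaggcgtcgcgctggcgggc
The UBD window held the kappa-B type match alone, 53 to 44 bases before the start. The TAP1 window held a pair of overlapping IRF type matches and a kappa-B type match, and B2M held all 3 motifs. HLA-F held both interferon-type motifs at overlapping positions. TAP2, whose level differed little between the lines, also held an IRF type match, and TAPBP held it beside a kappa-B type match. HLA-B and HLA-C held the interferon-stimulated element type, and HLA-B held a kappa-B type match too. A second TAP1 entry, further downstream, held none of them. The matches are letters in these windows and were not related to binding or to the array values by any test.

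Other genes of the route were read in the same way. Among 25 further class I genes (other heavy chains, immunoproteasome subunits, proteasome activators, trimming peptidases and chaperones) none of 21 measured in MKN74 and none of 25 measured in MKN45 was past 1.5-fold, beside 5.56% and 6.58% of all genes, and the median log2 ratios were 0.07 and 0.08. NLRC5, the transactivator of class I genes, gave 0.31 (error 0.40) in MKN74, where its control channel was not well above background, and 0.17 (error 0.25) in MKN45.

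The immunoproteasome subunits, which replace constitutive subunits under interferon gamma, had ratios from -0.14 to 0.29. Only the PSMB9 ratio in MKN45 exceeded its error. PSMB9 gave 0.07 (error 0.21) and 0.29 (error 0.21), PSMB10 gave -0.14 (error 0.20) in both lines, and PSMB8 gave 0.12 (error 0.20) in MKN45 and had no signal above background in MKN74. The constitutive subunits PSMB5, PSMB6 and PSMB7 all had ratios below 0, none past 1.5-fold, in each line. The trimming peptidase ERAP1 gave 0.15 (error 0.21) in MKN74 and 0.15 (error 0.20) in MKN45. ERAP2 gave 0.07 (error 0.20) in MKN45 and had no signal above background in MKN74.

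In control cells, 12 of 24 further class I genes were at least 1.5-fold higher in MKN45 and 1 was that much lower, beside 30.8% and 31.1% of all genes, with a median difference of 0.59. PSMB8, which lies beside TAP1 in the genome, was at least 19.4-fold higher in MKN45 and its neighbour PSMB9 was 2.25-fold higher. ERAP2 was at least 105-fold higher in MKN45, ERAP1 was 2.71-fold higher, and PSMB10 differed by -0.10 (error 0.20). With normexp background correction and loess the log2 difference was 2.94 for PSMB8 and 4.95 for ERAP2, both below their lower bounds, and this alternative was added for them after the data were seen. Of the constitutive subunits 2 of 3 were at least 1.5-fold lower in MKN45, beside 31.1% of all genes, and PSMB5 differed by -0.11 (error 0.20).

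Genes that act on UBD, namely its activating enzyme UBA6, its conjugating enzyme UBE2Z and its partners NUB1, HDAC6, SQSTM1, MAD2L1, PSMD4 and VCP, were all measured in both lines. None of the 8 was past 1.5-fold, beside 5.56% of all genes in MKN74 and 6.58% in MKN45, and the medians were -0.01 in MKN74 and -0.02 in MKN45. UBA6 came closest, with 0.57 (error 0.23), or 1.49-fold, in MKN74 and 0.37 (error 0.25) in MKN45. None of the 11 other ubiquitin-like modifiers was past 1.5-fold either. In control cells 4 of the 8 UBD-related genes were at least 1.5-fold lower in MKN45 and none was that much higher, beside 31.1% and 30.8% of all genes.

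Regulators of class I transcription (among them interferon regulatory factors, interferon receptors, RFX, NF-Y and NF-kappa-B subunits) had 0 of 28 measured genes past 1.5-fold in MKN74 and 1 of 28 in MKN45, beside 5.56% and 6.58% of all genes. That gene was IRF9, the DNA-binding subunit of the complex that type I interferon activates, with 0.02 (error 0.20) in MKN74 and 0.60 (error 0.21) in MKN45. IRF1 gave 0.03 (error 0.21) and 0.14 (error 0.21). In control cells 6 of 28 regulators were at least 1.5-fold higher in MKN45 and 10 were that much lower, beside 30.8% and 31.1% of all genes. IRF1 was 2.08-fold and IRF9 3.97-fold lower in MKN45. A relation of these levels to those of the class I genes was not tested.

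Of the surface ligands of natural killer and T cells, 2 of 12 measured genes were past 1.5-fold in MKN74 and 4 of 12 in MKN45, beside 5.56% and 6.58% of all genes. MICB, a stress-induced ligand of the receptor NKG2D, gave 0.94 (error 0.23) in MKN74 and 0.27 (error 0.21) in MKN45. CD86, a costimulatory ligand, gave -0.61 (error 0.23) and -0.51 (error 0.21). ULBP1, also a ligand of NKG2D, gave -0.13 (error 0.20) in MKN74 and -0.89 (error 0.29) in MKN45. ICAM1, an adhesion molecule, gave -0.06 (error 0.20) and 0.68 (error 0.29), at a control intensity of only 19.9 in MKN45. CD274 (1.82, error 0.74) and ULBP3 (0.66, error 0.58) also passed in MKN45, but the control channel of each was not well above background there.

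MHC class II genes were mostly dark, with 7 of 18 well above background in MKN74 control cells and 6 of 18 in MKN45, and CIITA, CD74 and HLA-DRA in neither. HLA-DMB, a peptide-exchange subunit, gave -0.20 (error 0.36) in MKN74 and 0.92 (error 0.22) in MKN45. HLA-DOA (0.97) and HLA-DOB (0.64) in MKN74 and CTSS (1.76) in MKN45 also passed 1.5-fold, but the control channel of each was not well above background there. The same held for the marker genes past 1.5-fold, KRT20 in MKN45 (0.70), ITGAM in MKN74 (0.87) and MKN45 (0.95) and CD3E in MKN45 (0.62). PECAM1 in MKN45 (-1.28) had a knockdown channel that was not well above background. Of the class II and marker genes past 1.5-fold, HLA-DMB alone had both channels measured there.

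**Figure D4:**
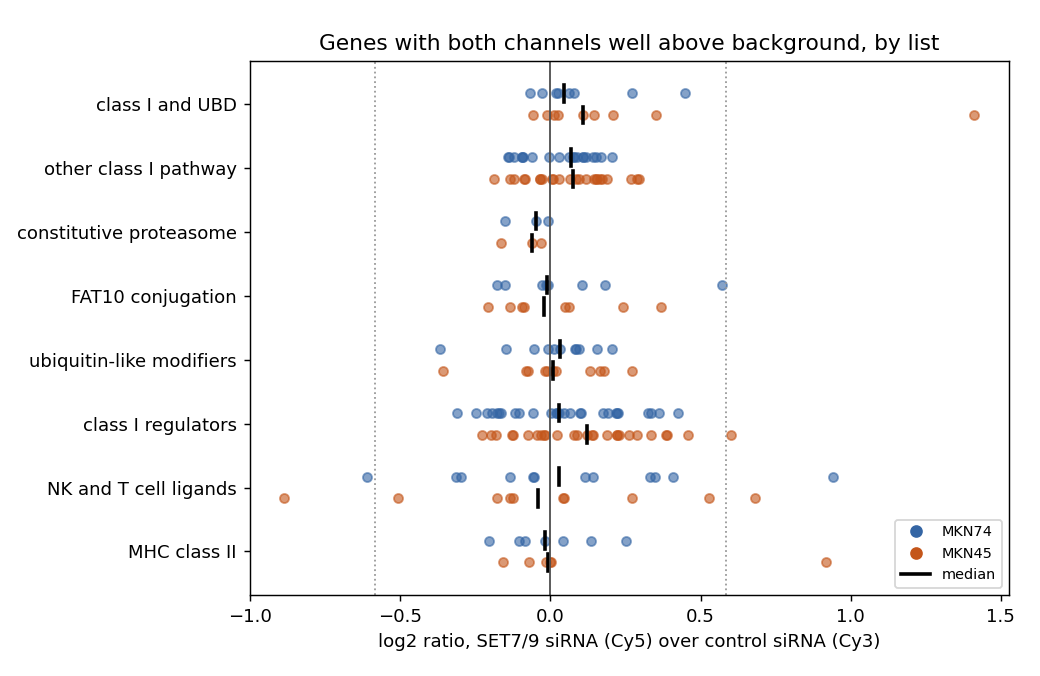
Log2 ratio of SET7/9 siRNA over control siRNA (x axis) for genes with both channels well above background, grouped by gene list (y axis), with black bars at the list median and dotted lines at 1.5-fold. The class I and UBD row holds 1 point beyond the lines, UBD in MKN45. The other class I pathway genes, FAT10 conjugation genes and ubiquitin-like modifiers have none.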

How the data were processed

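Labelled RNA of each cell line was hybridised by the authors to an Agilent Human GE 4x44K v2 array. The deposited scanner files, made with Agilent Feature Extraction 10.7.3.1, hold for each spot a processed Cy3 and Cy5 intensity, already background-subtracted and dye-normalised, and the log10 of Cy5 relative to Cy3 with an error estimate. A deposited table holds log2 ratios, which equalled those of the scanner files within rounding for 100% of the probes spotted once, and was used as an alternative. Probe coordinates are those of the array annotation (GRCh37).

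Control spots and outlier spots were left out, and repeated spots averaged. A probe was kept when at least 50% of its spots were well above background in 1 channel, and a gene was read at its brightest kept probe. Control levels were scaled between arrays with Aquantile in limma 3.58.1 (R 4.3.3). Where 1 channel was dim, its value was replaced by the lowest signal well above background in that channel, or its own if higher, and the fold given as a lower bound. The counting was tested on simulated data. With 2 arrays, 1 for each cell line, no test was possible and precision is limited by their number.

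Always named were the 9 genes, SETD7, NLRC5, PSMB8, PSMB9, PSMB10, ERAP1, ERAP2 and IRF1, and some genes of the lists are not reported here by name. From each list the genes past 1.5-fold were named, or, if over 5, the 4 with the largest ratio measured in both channels, and the 5 genes nearest to the members' median. Members and lists were chosen with earlier results of these data known. Alternatives were another background correction, centring, filters, probe rules, scaling and fold thresholds. Sequences are from the scanner files and RefSeq, whose identifiers matched for 25 of 25.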

Additional observations from a re-analysis of the deposited data

Results flagged for a closer look

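Probes of named genes with both channels measured in both lines and ratios of opposite sign were listed, and these differences were not tested. For the class I genes, the MKN45 minus MKN74 difference was 0.14 and 0.052 at the HLA-B probes A_33_P3379947 and A_33_P3424800, -0.029 at the HLA-F probe A_33_P3379939 and -0.14 at the TAPBP probe A_23_P259580, all smaller than the combined error of 0.29 to 0.32. With normexp background correction and loess 3 of these 4 probes had the same sign in both lines, since the MKN45 ratio became -0.045 at A_33_P3424800, 0.066 at A_33_P3379939 and 0.033 at A_23_P259580. For other genes it was 1.12 for HLA-DMB (combined error 0.42), 0.74 for ICAM1 (combined error 0.36) and -0.46 for the dimmer SETD7 probe (combined error 0.30).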

How the results depend on the processing

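No paired analysis was possible because each cell line has 1 array and no group has replicates. The number of the 9 genes past 1.5-fold was 0 in MKN74 and 1 (UBD) in MKN45 under all 7 alternatives of correction, centring, filter, source and probe rule. In the main processing the number stayed so at 2-fold, while at 1.3-fold TAP1 passed in MKN74, giving 1. The median ratio and the median difference between lines moved by less than the spread of repeated spots. The median control level difference was 0.69 as reported, 0.56 after scaling to the 75th percentile and 0.40 with the mean of a gene's probes. Of 122 log2 ratios of single probes, 121 moved by less than their error and 114 kept their sign, 24 of 31 with normexp and loess. The dim TAP2 probe in MKN45 turned from 0.91 to -0.039 with normexp background correction and loess, where UBD in MKN45 was 1.26, and the cause was not tested. What signal over background limits is seen in the errors, which were 0.28 for the dim HLA-B probe in MKN74 and 0.80 and 0.81 for the dim TAP2 and TAPBP probes in MKN45. Of 32 values of control level differences by probe, 25 moved by less than their error and 31 kept their sign. The exception was the HLA-C probe A_33_P3330109, which went from 0.04 to -0.11 after scaling to the 75th percentile. Normexp correction, whose offset shrinks differences at low signal, gave 2.78 for UBD, 0.82 for the HLA-F probe A_33_P3379967, -0.69 for the dim HLA-B probe and -0.58 for the dim TAP2 probe. For UBD, the dim HLA-B probe and the dim TAP2 probe these differences are smaller than the lower bounds given above.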
